A study of Homo sapiens with 12 samples.

Results

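The interaction of dexamethasone (DEX) and the STAT inhibitor SH4-54 was measured gene by gene in MDA-MB-231 cells. It is the DEX effect measured with SH4-54 minus the DEX effect measured without it, on a log2 scale, from 1 model of the deposited count table with all 12 of the 12 libraries. Every gene with enough counts was a member, 14184 of the 26364 rows of the table. MDA-MB-231 is an established human breast cancer cell line that lacks oestrogen and progesterone receptors and ERBB2 amplification and has a mesenchymal character. Replicate wells, 3 in each of 4 groups, received no drug, 1 µM DEX, 8 µM SH4-54, or 1 µM DEX with 8 µM SH4-54, in each case for 24 h. One label field writes SH5-54 for these samples, against SH4-54 in their titles and in the series design, and the latter spelling was kept. Whether the no-drug wells received a vehicle is not given in the labels. All groups are wells of 1 cell line, and the p-values measure the spread between those wells, which may be technical.

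DEX is a synthetic agonist of the glucocorticoid receptor, a nuclear receptor that, once bound to hormone, induces genes such as FKBP5 and TSC22D3 from its own DNA elements and lowers many inflammatory genes by interfering with AP-1 and NF-kB. SH4-54 is a small molecule designed to bind the SH2 domain of STAT3 and STAT5, the latent transcription factors that cytokine receptors and their JAK kinases activate. STAT3 and the glucocorticoid receptor are known to meet at shared target genes, among them acute-phase genes, which glucocorticoid and the IL-6 family of cytokines induce together. A log2 interaction of 0 means that the folds of the single compounds multiply in the combination. A positive value means a level above that product, a negative value a level below it, whichever way the single compounds moved the gene. In a bulk sample, fewer cells with a transcript and less transcript per cell cannot be told apart.

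Counted reads per library ranged from 25577213 to 35758236, and the deepest was combination replicate 3. The first principal component, 50.3% of the variance of log2 CPM (CPM are the counts scaled by library size), separated the 6 wells with DEX from the 6 without. The second, 17.5%, separated the 6 wells with SH4-54 (scores from -31.4 to -2.11) from the 6 without (7.26 to 17.9). It also spread the combination wells more than those of the other groups. The median gene's SD of log2 CPM over 3 wells was 0.0864 with both compounds and from 0.0624 to 0.0682 in the other groups. The mesenchymal markers VIM, CD44, FN1, ZEB1, SNAI2 and EGFR were present in all 12 libraries (VIM from 805 to 1365 CPM, ZEB1 from 64.9 to 85.1 CPM), while ESR1 stayed at or below 0.233 CPM and PGR at or below 0.450 CPM. Of the other markers expected to be low or absent, GATA3 stayed at or below 1.67 CPM and FOXA1 at or below 1.86 CPM. ERBB2, at 73.8 to 90.4 CPM, and the epithelial markers EPCAM, at 17.3 to 23.2 CPM, and CDH1, at 5.29 to 15.05 CPM, were present in all 12 libraries. Haematopoietic markers summed to 39.3 to 56.7 CPM, nearly all of it CD68, and CD2 and HBB had no count in any library.

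The combined response departed from the sum of the single log2 effects in 553 genes, 3.90% of those tested (edgeR quasi-likelihood test, Benjamini-Hochberg adjusted p below 0.05). Of these, 346 (2.44%) were above the sum and 207 (1.46%) below it. The departures were small for most genes, with a median size of 0.36 on the log2 scale, and 123 genes departed at least 1.5-fold, 49 upward and 8 downward at least 2-fold. Tested against a fold of 1.2 in place of no change, 36 genes remained above and 2 below. The median log2 interaction of all tested genes was 0.0057. The DEX effects with and without SH4-54, which come from different libraries, had a Pearson r of 0.76 across the tested genes (a description, since genes are not independent). Of 6397 genes called for DEX alone, 5883 (92.0%) had the same sign in the presence of SH4-54. The DESeq2 Wald test split its calls evenly, 384 above and 370 below, against 346 and 207.

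Most of the departures ran against the DEX effect. Sorted by the call for DEX against no drug, 171 of the 207 genes below the sum were genes that DEX raised and 285 of the 346 above it were genes that DEX lowered. In the first class the median DEX effect was 0.52 without SH4-54 and 0.13 with it, and the median gene kept 27.9% of its DEX effect. In the second the values were -0.58, -0.10 and 20.8%. A DEX rise made larger was found for 11 genes and a DEX fall made larger for 6. A further 50 genes above and 30 below had no call for DEX alone. DEX against no drug and the interaction share the DEX and no-drug libraries, so these class sizes and medians are a description. That the DEX effect was smaller with SH4-54 in the first class and in the second follows from the sorting. The percentages kept rest on the same wells that sorted the genes. Sorted instead by the DEX effect averaged over both arms, which weights both arms equally, the classes held 145, 228, 40, 28, 78 and 34 genes in the same order.

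SH4-54 by itself moved few of these genes. It was called for 85 of all tested genes (0.599%, with 0.268% upward and 0.331% downward) and for 20 of the 553. Both compounds against DEX were called for 26.6% of tested genes, upward in 337 of the 346 genes above the sum and downward in 196 of the 207 below, a contrast that shares the combination and DEX libraries with the interaction. With SH4-54 present, DEX (45.1% of genes called without it, 40.4% with it) no longer passed the test in 80 of the 171 risen genes and in 127 of the 285 fallen ones. It passed in the opposite direction in 10 and 33. The turned genes included JUN, PPP1R15A, CCL26, SNAI1, the lamin gene LMNA (-0.28 without SH4-54, 0.12 with it), the transcriptional coregulator gene CITED2 (-0.18 and 0.36) and the desaturase gene FADS2 (0.11 and -0.25). Neither single compound was called for 77 of the 553 genes, and the combination against no drug, called for 42.7% of all genes, was called upward in 44 of these and downward in 25.

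**Figure D1:**
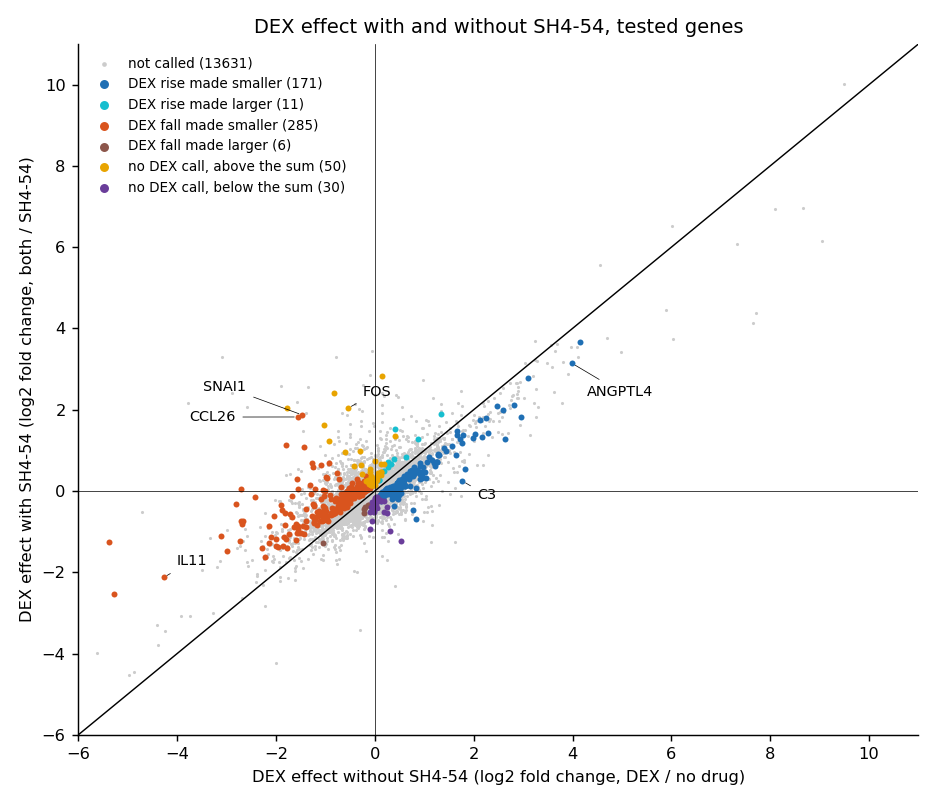
DEX effect with SH4-54 present (log2 fold change, both against SH4-54) against the DEX effect in its absence (log2 fold change, DEX against no drug) for 14184 tested genes. Points on the diagonal have an interaction of 0, and coloured points are the 553 called genes by class, of which the 285 DEX falls made smaller lie above the diagonal on the left and the 171 DEX rises made smaller lie below it on the right.

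Leaving out single wells changed how many genes were called and the share of them above the sum. In all 553 genes the 3 combination wells lay on 1 side of the sum of the single effects, and no gene changed sign in any of the other fits made. The 553 genes were called from these same wells, so both are a description and no independent support. Combination replicate 2 departed farthest in 290 of the 346 genes above and in 173 of the 207 below, and combination replicate 3 least in 276 and 175. Among the genes above the sum the median departures of combination replicates 1, 2 and 3 were 0.37, 0.46 and 0.28, and among those below -0.35, -0.43 and -0.24. Without combination replicate 3 the count was 2046 (833 above and 1213 below), of which 551 were among the 553. Without combination replicates 1 and 2 it was 296 and 303. Without no-drug replicates 1, 2 and 3 it was 365, 238 and 218, without DEX replicates 1, 2 and 3 it was 258, 204 and 254, and without SH4-54 replicates 1, 2 and 3 it was 507, 209 and 255. In all 12 of these fits 164 genes kept their call, 118 above and 46 below the sum. A gene given below with its value in every well is one of these unless a lost call is stated. The part of depth or of the difference between combination wells in the count was not tested.

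**Figure D2:**
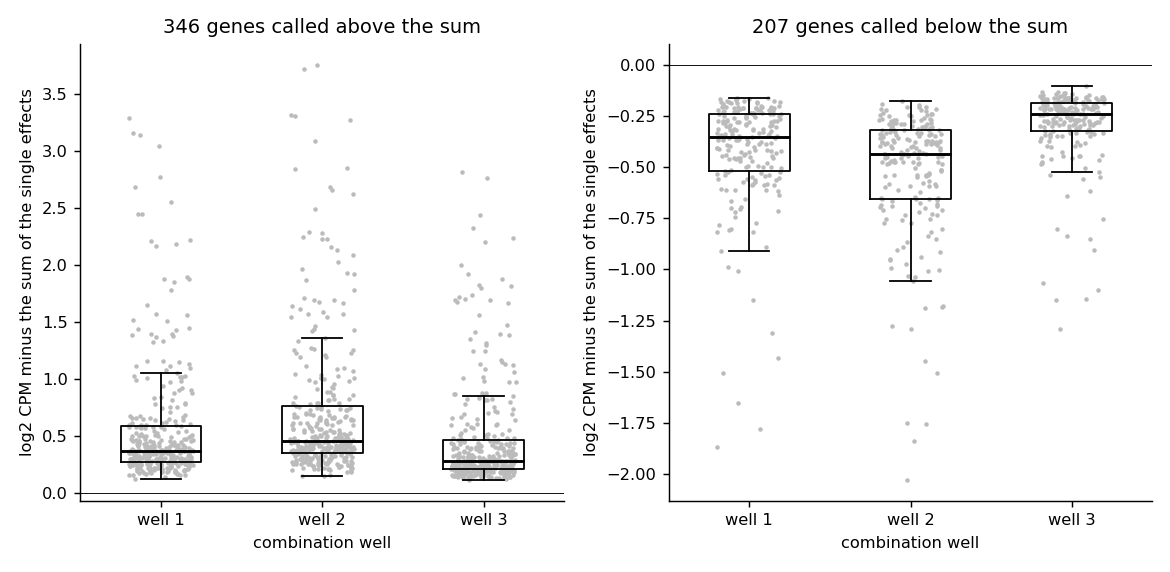
Departure of each combination well from the sum of the single log2 effects (log2 CPM, vertical axis) for the 346 genes called above the sum (left) and the 207 called below it (right). Each point is 1 gene, and boxes show the median and quartiles. Replicate 2 has the largest and replicate 3 the smallest median departure in both panels.

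**Figure D3:**
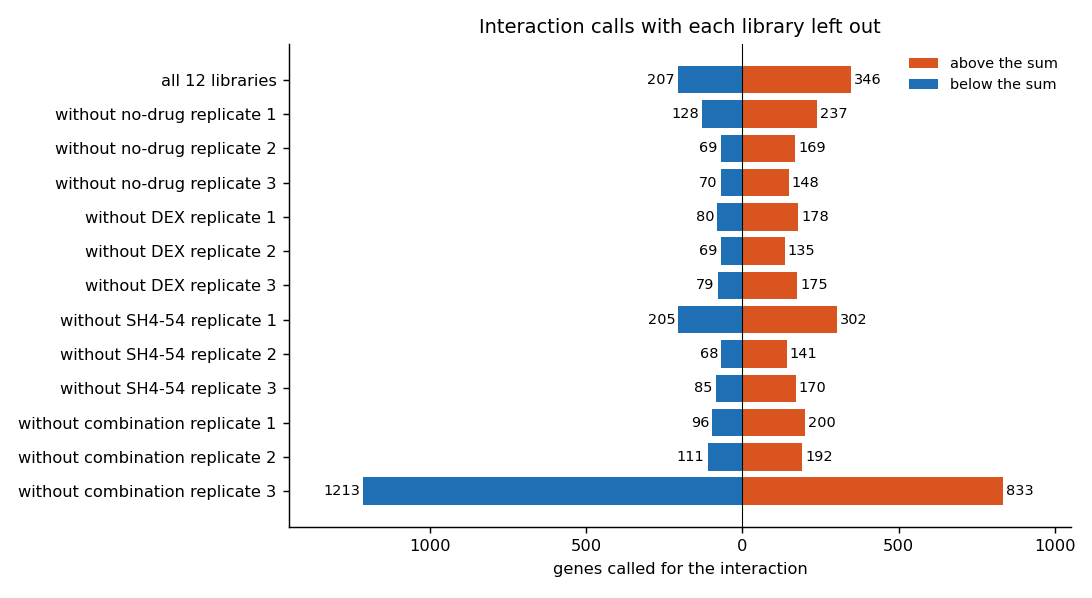
Genes called for the interaction, above the sum (right, orange) and below it (left, blue), with all 12 libraries and with each library left out in turn. The count ranged from 204 without DEX replicate 2 to 2046 without combination replicate 3.

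Transcripts of the targeted factors themselves did not pass the interaction test. NR3C1, the gene of the glucocorticoid receptor, was at 499.9, 488 and 493 CPM without drug, 278, 272 and 276 CPM with DEX, 476, 484 and 479 CPM with SH4-54 and 285, 271 and 272 CPM with both. Its log2 interaction was 0.05 ± 0.040 (SE, adjusted p = 0.546), where ± after a log2 value is its standard error throughout, and the wells with DEX were low whether or not SH4-54 was present. STAT3 (-0.12 ± 0.056, adjusted p = 0.221), STAT5A (0.28 ± 0.11, adjusted p = 0.161) and STAT5B (0.07 ± 0.061, adjusted p = 0.566) were not called. Of 22 tested STAT3 target genes 1 (FOS) was above and 2 below the sum, with a median of -0.08. Over all tested genes 2.44% were above and 1.46% below, the shares to set beside list counts, here and below, from all 12 libraries. List counts without a combination replicate have another background. Without combination replicates 1, 2 and 3, 200, 192 and 833 of all tested genes were above and 96, 111 and 1213 below. The genes tested in these fits numbered 14370, 14335 and 14357. Of the STAT3 target genes, 5 were above and 8 below without combination replicate 3. Without replicates 1 and 2, 1 was above in each case and 0 and 1 below. The 2 below with all libraries were the oncostatin M receptor gene OSMR (-0.36 ± 0.086) and HIF1A (-0.33 ± 0.086), and each lost its call in 9 of the 12 fits with a library left out (largest adjusted p 0.0909 and 0.117).

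Genes that the glucocorticoid receptor induces still rose with DEX when SH4-54 was present. Of 29 tested glucocorticoid-induced genes, 26 rose with DEX alone (21.9% of all genes did) and 26 rose with both against SH4-54 (20.1% of all genes rose and 20.3% fell). The list's median DEX effect was 1.43 without and 1.56 with SH4-54, while the median of the genes' own interactions was -0.19. The interaction was below the sum in 5 and above it in 2, and 4, 4 and 9 were below without combination replicates 1, 2 and 3. TSC22D3, which encodes the glucocorticoid-induced leucine zipper protein, was at 7.29, 6.30 and 6.85 CPM without drug, 85.8, 87.8 and 84.0 CPM with DEX, 5.95, 7.02 and 8.07 CPM with SH4-54 and 77.7, 61.3 and 87.5 CPM with both. The DEX and combination wells overlapped, and the interaction of -0.22 ± 0.18 (SE, adjusted p = 0.517) did not pass. FKBP5, the receptor's co-chaperone and a standard marker of its activity, was at 53.7, 55.6 and 52.4 CPM without drug, 325, 345 and 309.7 CPM with DEX, 54.0, 56.8 and 52.3 CPM with SH4-54 and 202, 181 and 271 CPM with both. All 3 combination wells were below all DEX wells and above all wells without DEX. Its interaction was -0.59 ± 0.15 (SE, adjusted p = 0.0397), a call lost in 11 of the 12 fits with a library left out (largest adjusted p 0.104).

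Of the 171 DEX-risen genes below the sum, 9 were not called for both compounds against DEX. In 5 of them, ANGPTL4, RGS2, MT2A and ANGPT1 included, SH4-54 raised the gene by itself. ANGPTL4, an inhibitor of lipoprotein lipase, was at 5.04, 4.38 and 4.18 CPM without drug, 72.3, 71.5 and 73.2 CPM with DEX, 8.04, 8.00 and 6.75 CPM with SH4-54 and 68.3, 61.3 and 71.5 CPM with both. SH4-54 alone raised it by 0.74 on the log2 scale (adjusted p = 0.00163), the wells with both lay below those with DEX, the highest of them (71.49 CPM) just under the lowest DEX well (71.52 CPM), and the interaction was -0.85 ± 0.11 (SE, adjusted p = 0.00185). RGS2, a brake on G-protein signalling, was at 10.4, 10.4 and 11.4 CPM without drug, 51.3, 53.6 and 48.2 CPM with DEX, 15.1, 15.8 and 14.7 CPM with SH4-54 and 50.1, 53.5 and 53.7 CPM with both. The SH4-54 wells lay above the no-drug wells, the DEX and combination wells overlapped, and the interaction was -0.47 ± 0.080 (SE, adjusted p = 0.00853).

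Metallothioneins are small metal-binding proteins that glucocorticoid and zinc induce. Of 7 tested, 3 were below the sum, with a median of -0.20. MT2A was at 143, 148 and 143 CPM without drug, 797, 784 and 813 CPM with DEX, 183, 181 and 173 CPM with SH4-54 and 805, 709 and 778 CPM with both. The DEX and combination wells overlapped, SH4-54 alone raised it by 0.31 (adjusted p = 0.00304), and the interaction was -0.37 ± 0.059 (SE, adjusted p = 0.00605). MT1X (-0.70 ± 0.15, largest adjusted p 0.0598 with a library left out) and MT1E (-0.32 ± 0.080, largest adjusted p 0.088) lost their calls in 4 and 9 of the 12 fits. Metallothionein genes resemble each other closely, and how reads mapping to several places were counted is not given, so single members are uncertain. The 2 glucocorticoid-induced genes above the sum were SGK1, a kinase of sodium transport (0.56 ± 0.15), and TIPARP (0.19 ± 0.046), which lost their calls in 10 and 9 of the 12 fits.

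The acute-phase and complement list had the lowest median interaction of the 21 lists, with C3 its 1 member called in every fit with a library left out. Of 13 tested, 9 rose with DEX alone, against 5 that rose and 1 that fell with both against SH4-54, 12 had a negative interaction and 3 were called below the sum, with a median of -0.45. Without combination replicates 1, 2 and 3, 2, 2 and 8 were below. C3, the central complement component, was at 3.599, 2.25 and 2.28 CPM without drug, 10.2, 8.08 and 9.76 CPM with DEX, 2.78, 3.68 and 4.21 CPM with SH4-54 and 3.30, 3.59 and 5.49 CPM with both. The DEX wells were above all others, and the wells of the other 3 groups overlapped. The interaction was -1.53 ± 0.30 (SE, adjusted p = 0.0149), and C3 kept 13.8% of its DEX effect, no longer passing the test for both against SH4-54 (adjusted p = 0.403). The protease inhibitor gene SLPI (-1.35 ± 0.29, mean CPM 4.68, 29.0, 5.74 and 13.7 without drug, with DEX, with SH4-54 and with both) and the serum amyloid gene SAA2 (-0.85 ± 0.22, 4.61, 20.7, 5.07 and 12.5) kept 48.5% and 60.9%. Their calls were lost in 6 and 10 of the 12 fits (largest adjusted p 0.0659 and 0.132). SAA2 has a near-identical neighbour, SAA1, and is uncertain for that reason.

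Genes that DEX lowered made up most of the genes above the sum, 285 of 346. IL11, a cytokine of the IL-6 family that signals to STAT3, was at 214, 230.4 and 245 CPM without drug, 11.9, 11.6 and 12.4 CPM with DEX, 284, 266 and 274 CPM with SH4-54 and 52.5, 90.3 and 46.6 CPM with both. The wells with both were above all DEX wells and below all wells without DEX. The interaction was 2.14 ± 0.25 (SE, adjusted p = 0.000575), and the DEX effect went from -4.27 to -2.12. Adding the single changes in CPM would have given 56.5 CPM, with combination wells on both sides of it. RELN, which encodes the secreted glycoprotein reelin, was at 12.1, 11.9 and 12.2 CPM without drug, 2.09, 1.82 and 1.62 CPM with DEX, 14.9, 13.7 and 13.9 CPM with SH4-54 and 8.00, 10.4 and 7.29 CPM with both, again with 4 separate groups. Its interaction was 1.98 ± 0.18 (SE, adjusted p = 0.00019).

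Other fallen genes no longer passed the test for DEX with SH4-54 present. RGS4, a regulator of G-protein signalling, was at 6.07, 5.24 and 5.45 CPM without drug, 1.59, 1.95 and 2.15 CPM with DEX, 5.46, 6.79 and 7.18 CPM with SH4-54 and 6.99, 7.10 and 5.91 CPM with both. Only the DEX wells stood apart, and the interaction was 1.59 ± 0.19 (SE, adjusted p = 0.000752). RASD1, a small GTPase, was at 13.6, 11.7 and 10.5 CPM without drug, 4.18, 3.94 and 3.92 CPM with DEX, 11.8, 14.2 and 14.9 CPM with SH4-54 and 16.0, 21.7 and 12.9 CPM with both, with an interaction of 1.88 ± 0.23 (SE, adjusted p = 0.00114) and, with SH4-54 present, a DEX effect of 0.30 (adjusted p = 0.122). MMP1, the interstitial collagenase and a classical AP-1 target that glucocorticoids lower, was at 18.7, 20.4 and 19.8 CPM without drug, 8.55, 7.88 and 7.76 CPM with DEX, 25.5, 22.1 and 22.6 CPM with SH4-54 and 26.1, 26.2 and 15.6 CPM with both. The DEX wells were below all others, the combination wells ranged over those without DEX, and the interaction was 1.22 ± 0.21 (SE, adjusted p = 0.00919). ANXA10 (2.02 ± 0.22), the hemidesmosomal collagen gene COL17A1 (1.94 ± 0.29) and the trefoil peptide gene TFF1 (2.28 ± 0.38) were also above the sum, and the first 2 still fell with both against SH4-54. They had mean levels of 5.37, 0.615, 8.02 and 3.75, of 5.37, 0.842, 5.46 and 3.29 and of 3.04, 0.560, 3.58 and 3.26 CPM without drug, with DEX, with SH4-54 and with both.

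NF-kB and matrix genes held members of both directions. Of 21 tested NF-kB inflammatory genes 5 were above and 1 below the sum, with a median of 0.28. Without combination replicate 3 they were 6 and 4. Beside IL11 and MMP1 these were the NF-kB subunit gene RELB (0.58 ± 0.11), the urokinase gene PLAU (0.62 ± 0.15) and the cyclooxygenase gene PTGS2 (0.96 ± 0.24) above and the adhesion molecule gene ICAM1 (-0.30 ± 0.079) below. PLAU, PTGS2 and ICAM1 lost their calls in 9, 10 and 11 of the 12 fits. Of 22 mesenchymal and matrix genes 4 were above and 4 below, with a median of 0.003, and without combination replicates 1, 2 and 3, 2, 2 and 6 were below. VIM, the intermediate filament vimentin, was at 1365, 1284 and 1324 CPM without drug, 884, 869 and 805 CPM with DEX, 1251, 1258 and 1275 CPM with SH4-54 and 1045, 1292 and 1083 CPM with both. Its DEX wells were below all others, and the interaction was 0.49 ± 0.087 (SE, adjusted p = 0.00949). Tenascin (TNC, 0.70 ± 0.12) was also above, while fibronectin (FN1, -0.57 ± 0.13), lysyl oxidase (LOX, -0.54 ± 0.13) and the integrin subunit ITGA5 (-0.45 ± 0.094), genes that DEX raised, were below. FN1, LOX and ITGA5 lost their calls in 10, 10 and 3 of the fits.

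Immediate-early genes, which cells switch on within minutes of a stimulus and which include the subunits of AP-1, had the highest median of the 21 lists. Of 24 tested, 8 were called, all above the sum, with a median of 0.69, and at an unadjusted p below 0.05 they were 15 above and 0 below (edgeR). Unadjusted calls, here and in the lists below, were common over all tested genes. Their number, in either direction together, is given under the results flagged for a closer look. It has no split by direction, so the direction of a list's unadjusted counts has no matching background. Such counts are given for some lists only. Of the others, the 25 cholesterol genes had 0 above and 23 below, and the 22 STAT3 target genes 5 and 8. FOS was at 1.85, 1.66 and 1.69 CPM without drug, 1.32, 1.13 and 1.13 CPM with DEX, 7.35, 6.98 and 4.75 CPM with SH4-54 and 24.1, 37.5 and 17.6 CPM with both. SH4-54 alone raised it by 1.88 (adjusted p = 0.00849), DEX alone was not called, and the wells with both were above all others, for an interaction of 2.58 ± 0.45 (SE, adjusted p = 0.00919). JUN was at 68.3, 70.4 and 73.3 CPM without drug, 42.1, 44.1 and 41.6 CPM with DEX, 80.5, 79.4 and 77.5 CPM with SH4-54 and 97.1, 116 and 77.4 CPM with both. DEX lowered it by itself, the combination wells overlapped the SH4-54 wells and lay above all DEX wells, and the interaction was 1.01 ± 0.14 (SE, adjusted p = 0.00208). ATF3, a stress-induced AP-1 relative, was at 4.51, 5.01 and 5.17 CPM without drug, 6.27, 6.47 and 6.67 CPM with DEX, 6.19, 6.57 and 5.52 CPM with SH4-54 and 16.4, 20.8 and 15.9 CPM with both, one of the 11 genes whose DEX rise was larger with SH4-54 (interaction 1.13 ± 0.16, adjusted p = 0.00252).

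MAFF, a small MAF protein, was at 29.98, 29.2 and 32.2 CPM without drug, 20.9, 20.04 and 23.7 CPM with DEX, 30.3, 28.9 and 29.0 CPM with SH4-54 and 29.1, 33.3 and 28.3 CPM with both, with only the DEX wells apart (interaction 0.54 ± 0.099, adjusted p = 0.0111). BTG2 (1.28 ± 0.25) also kept its call, and IER2 (0.45 ± 0.11), CYR61 (0.35 ± 0.091) and NR4A2 (1.83 ± 0.46) lost theirs in 11, 10 and 8 of the 12 fits. FOSB (2.53 ± 0.78, adjusted p = 0.0809) and ARC (2.27 ± 1.2, adjusted p = 0.288) did not pass. Their mean levels were 0.238, 0.183, 2.09 and 9.35 and 0.0989, 0.108, 3.08 and 16.6 CPM without drug, with DEX, with SH4-54 and with both, and both rose with SH4-54 alone (adjusted p = 0.00326 and 0.000231). Without combination replicate 3, 14 of the 24 were called above the sum, and without replicates 1 and 2, 6 and 7.

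CCL26 and SNAI1 had the largest positive interactions of the genes that kept their call with each library left out and reached 5 CPM in a group. CCL26, the eosinophil chemokine eotaxin-3, which STAT6 is known to induce, was at 2.79, 2.88 and 3.02 CPM without drug, 0.812, 1.10 and 1.02 CPM with DEX, 7.42, 7.02 and 6.17 CPM with SH4-54 and 23.6, 32.7 and 17.04 CPM with both. The 4 groups did not overlap: DEX lowered it, SH4-54 raised it, and the wells with both were highest. Its interaction was 3.38 ± 0.35 (SE, adjusted p = 0.000318). SNAI1, a repressor of E-cadherin and driver of epithelial-mesenchymal transition, was at 1.35, 0.663 and 1.37 CPM without drug, 0.503, 0.445 and 0.264 CPM with DEX, 1.75, 2.78 and 1.74 CPM with SH4-54 and 7.46, 11.1 and 4.54 CPM with both. The combination wells were above all others, and the interaction was 3.34 ± 0.59 (SE, adjusted p = 0.00949). RPL39 also met the rule for named genes (2.51 ± 0.47) but is uncertain. It ranged from 134 to 271 CPM over the no-drug wells and from 81.6 to 293 over the combination wells, and as a ribosomal protein gene it has many near-identical copies.

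**Figure D4:**
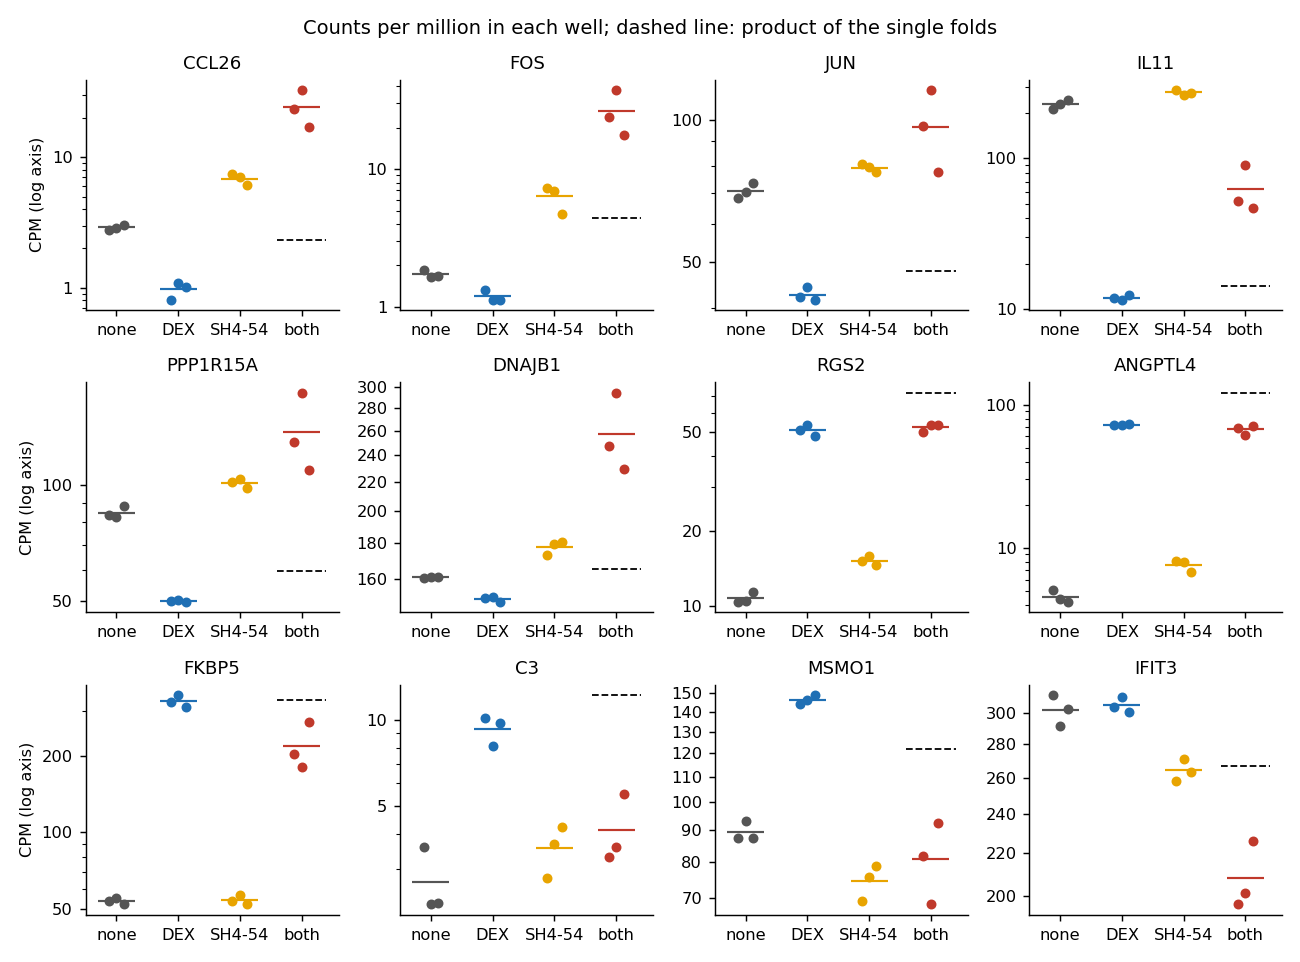
CPM (log axis) in each of the 3 wells per group for 12 genes; points are wells, solid lines group means, and the dashed line is the level with both compounds that the product of the single folds gives. CCL26, FOS and DNAJB1 lie above every other group with both, RGS2 and ANGPTL4 near the DEX wells, and C3 and MSMO1 near the wells without DEX.

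Called genes of the ATF4 and cytosolic heat shock lists lay above the sum. Of 29 tested genes of the ATF4 programme, which amino acid shortage and the unfolded protein response switch on, 6 were called, all above, with a median of 0.10 (4, 5 and 7 above without combination replicates 1, 2 and 3, with 3 below in the last case). PPP1R15A (GADD34), the phosphatase subunit that reverses eIF2α phosphorylation, was at 83.6, 82.7 and 88.1 CPM without drug, 49.9, 50.1 and 49.6 CPM with DEX, 102, 104 and 98.1 CPM with SH4-54 and 129, 174 and 109.7 CPM with both. DEX lowered it alone and raised it in the presence of SH4-54 (0.44, adjusted p = 0.00518), for an interaction of 1.204 ± 0.16 (SE, adjusted p = 0.00185). The 2 chains of an amino acid transporter, SLC7A5 (0.57 ± 0.10) and SLC3A2 (0.43 ± 0.086), were above as well. SLC3A2 lost its call without DEX replicate 2 (adjusted p = 0.0529). SHMT2 (0.29 ± 0.063) and DDIT3 (0.49 ± 0.12) lost theirs in 6 and 11 of the 12 fits.

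Of 25 tested cytosolic heat shock genes, 7 were called, all above, with a median of 0.21. At an unadjusted p below 0.05 they were 14 above and 0 below (edgeR), and without combination replicates 1, 2 and 3 the calls above were 4, 6 and 11. DNAJB1, the main co-chaperone of HSP70 and a target of the heat shock factor HSF1, was at 161, 161 and 161 CPM without drug, 151, 151 and 149 CPM with DEX, 173, 179.8 and 181 CPM with SH4-54 and 248, 294 and 229 CPM with both. Neither single compound was called, and all 3 combination wells were above all others (interaction 0.63 ± 0.089, adjusted p = 0.00252). HSPA1B, an inducible HSP70, was at 2.57, 2.22 and 1.79 CPM without drug, 1.62, 1.99 and 1.70 CPM with DEX, 2.68, 2.48 and 1.78 CPM with SH4-54 and 4.20, 5.22 and 4.48 CPM with both, with the combination wells again above all others (interaction 1.31 ± 0.25, adjusted p = 0.0131). It shares its coding sequence almost wholly with HSPA1A and is uncertain. HSPH1, an HSP70 exchange factor, was at 383, 386 and 404 CPM without drug, 289, 297 and 282 CPM with DEX, 407, 395 and 385 CPM with SH4-54 and 391, 439.8 and 368 CPM with both, where only the DEX wells stood apart and lower (interaction 0.45 ± 0.072, adjusted p = 0.00611). HSPA6, a strictly inducible HSP70, was at 0.501, 0.265 and 0.457 CPM without drug, 0.232, 0.308 and 0.641 CPM with DEX, 25.4, 27.1 and 19.4 CPM with SH4-54 and 150.3, 483 and 156 CPM with both. It rose with SH4-54 alone (adjusted p = 0.00118) and was highest with both, and its interaction of 3.51 ± 1.9 did not pass (adjusted p = 0.303). STIP1 (0.22 ± 0.049), CHORDC1 (0.27 ± 0.064), DNAJB4 (0.34 ± 0.085) and HSPB1 (0.50 ± 0.12) lost their calls in 9, 9, 9 and 8 of the 12 fits.

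HMOX1, haem oxygenase, was the 1 called member of 25 NRF2 antioxidant genes (median 0.11), against 3 above and 1 below by DESeq2 and 5 above and 4 below by edgeR without combination replicate 3. It was at 15.7, 14.5 and 15.9 CPM without drug, 13.1, 11.9 and 13.7 CPM with DEX, 22.8, 24.4 and 23.0 CPM with SH4-54 and 29.8, 37.3 and 27.0 CPM with both. The 4 groups did not overlap, and the interaction of 0.67 ± 0.14 (SE, adjusted p = 0.0181) was lost without no-drug replicate 3 or DEX replicate 2 (largest adjusted p 0.0586). Among 31 proteasome subunit genes 3 were called, all above (median 0.083), and each lost its call in at least 11 of the 12 fits. Without combination replicates 1, 2 and 3 there were 0, 0 and 6. Among 21 ER chaperone genes 1, EDEM1, was called, below the sum (median -0.003), against 0, 0 and 4 below without combination replicates 1, 2 and 3. Of 28 G2/M genes 2 were called above the sum, KIF20A (0.38 ± 0.063) and BIRC5 (0.23 ± 0.052), with a median of 0.13, and 11 without combination replicate 3. At edgeR's unadjusted p below 0.05 they were 15 above and 1 below. BIRC5 lost its call in 6 of the 12 fits. Of 29 DNA replication and G1/S genes 0 were called by edgeR and 0 by DESeq2, with a median of 0.075. At edgeR's unadjusted p below 0.05 they were 7 above and 1 below. No trend is read from this, since the split of unadjusted calls by direction over all tested genes is not given. Without combination replicate 3, edgeR called 6 above and 1 below. Ribosome biogenesis held 1 called gene of 26, RRP12 (0.28 ± 0.069), which lost its call in 10 of the 12 fits, and 5 without combination replicate 3. Over all tested genes 3.90% were called, and the NRF2, ER chaperone and ribosome biogenesis lists, with 1 call each, lay near that share. Hypoxia and glycolysis genes held 2 above and 3 below of 22 (2 and 10 without combination replicate 3), among them the glycolytic enzyme PGK1 (-0.24 ± 0.047).

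Upstream sequence of 3 genes above the sum is shown because each holds a motif of the factor families just described. The cyclic AMP response element TGACGTCA, which ATF and CREB factors bind, occurs on either strand in 540 (1.98%) of 27305 promoters of 300 bases in RefSeq (GRCh38.p14), and the AP-1 site TGANTCA in 2120 (7.76%). The stretches of PPP1R15A at chr19:48872333-48872400 (plus strand), MAFF at chr22:38201910-38201977 (plus strand) and IL11 at chr19:55370523-55370589 (minus strand) are given on the gene's strand, 5′ to 3′, with the motif in capitals. The reads were counted on the older build hg19/GRCh37. The genes were picked for holding the motif, and a match describes the sequence and shows no binding.
PPP1R15A: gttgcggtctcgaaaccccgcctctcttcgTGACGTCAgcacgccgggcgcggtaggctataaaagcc
MAFF: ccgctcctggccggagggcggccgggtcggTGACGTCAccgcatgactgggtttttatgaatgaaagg
IL11: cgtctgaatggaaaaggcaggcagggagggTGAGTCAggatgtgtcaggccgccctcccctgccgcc
The first base of the motif lies 58, 54 and 96 bases before the transcription start, in that order, and no match overlapped a match of another motif searched.

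Of the genes of cholesterol synthesis all but 1 had a negative interaction. SREBP2 switches on the enzymes of cholesterol synthesis when membrane sterol is low, and SREBP1 does the same for fatty acids. Of 25 tested cholesterol genes 16 were called, all below the sum, 24 had a negative interaction, and the median was -0.31. DEX alone raised 21 of the 25, DEX in the presence of SH4-54 raised 5 and lowered 3, and the median DEX effect went from 0.35 to 0.05. SH4-54 alone had a median effect of -0.19 in the list and lowered 3 of its genes (0.331% of all genes). Both compounds against no drug raised 0 and lowered 9 (21.1% and 21.6% of all genes). MSMO1, a sterol methyl oxidase, was at 87.5, 93.1 and 87.6 CPM without drug, 144, 146 and 149 CPM with DEX, 69.0, 75.5 and 78.7 CPM with SH4-54 and 81.9, 68.3 and 92.6 CPM with both. The DEX wells were above all others, and the wells with both ranged over those of SH4-54 and of no drug (interaction -0.59 ± 0.11, adjusted p = 0.0131). FDFT1, the squalene synthase that commits the pathway to sterols, was at 129, 131 and 123 CPM without drug, 165, 170.1 and 175 CPM with DEX, 107, 112 and 114 CPM with SH4-54 and 104, 93.5 and 113 CPM with both, with the combination wells overlapping those of SH4-54 (interaction -0.51 ± 0.077, adjusted p = 0.00432).

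Lanosterol synthase (LSS, -0.49 ± 0.088), DHCR7 (-0.38 ± 0.075) and FDPS (-0.26 ± 0.047) kept their calls with each library left out. Those of INSIG1 (-0.68 ± 0.15), SQLE (-0.43 ± 0.10) and HMGCS1 (-0.43 ± 0.11) were lost in 5, 9 and 11 of the 12 fits. The count of 16 became 7, 11 and 23 without combination replicates 1, 2 and 3. Of 17 fatty acid synthesis genes 6 were called, all below (median -0.20). FADS2, the first desaturase of polyunsaturated fatty acid synthesis, was at 238, 237 and 232 CPM without drug, 252, 251 and 262 CPM with DEX, 202, 209 and 219 CPM with SH4-54 and 176, 168 and 186 CPM with both. DEX raised it without SH4-54 and lowered it with SH4-54 (interaction -0.36 ± 0.056, adjusted p = 0.00485). FADS1 (-0.29 ± 0.051) was also below, and SCD (-0.81 ± 0.17), which went from 0.25 to -0.55 in its DEX effect, lost its call in 6 of the 12 fits. The count of 6 became 2, 5 and 12 without combination replicates 1, 2 and 3.

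Called interferon-stimulated genes were below the sum, 3 of them (IFIT3, IFIT1 and HERC5) with no call for DEX alone. These are the antiviral genes that interferons switch on. Of 29 tested, 6 were called, all below the sum, with a median of -0.21, and 4, 5 and 10 were below without combination replicates 1, 2 and 3. IFIT3, which encodes an RNA-sensor partner of IFIT1, was at 312, 291 and 302 CPM without drug, 304, 311 and 301 CPM with DEX, 258, 271 and 263 CPM with SH4-54 and 196, 202 and 226 CPM with both. The no-drug and DEX wells overlapped, the SH4-54 wells lay below both without a call (adjusted p = 0.085), and the combination wells were lowest (interaction -0.36 ± 0.064, adjusted p = 0.0101). IFIT1, which binds foreign RNA ends, was at 328, 295 and 321 CPM without drug, 319.6, 317 and 329 CPM with DEX, 239, 269 and 260.0 CPM with SH4-54 and 171, 188 and 215 CPM with both. It had the same order of groups, and its interaction of -0.45 ± 0.095 (SE, adjusted p = 0.0196) was lost with SH4-54 replicate 2, DEX replicate 3 or no-drug replicate 2 left out (largest adjusted p 0.0609). HERC5, the ligase that attaches ISG15 to proteins, was at 106, 95.4 and 99.4 CPM without drug, 101, 98.4 and 95.3 CPM with DEX, 88.8, 93.2 and 97.8 CPM with SH4-54 and 67.2, 68.6 and 76.8 CPM with both. The combination wells were below all others, and the interaction of -0.37 ± 0.075 (SE, adjusted p = 0.017) was lost without no-drug replicate 2 (adjusted p = 0.0537).

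OASL, a relative of the oligoadenylate synthetases, was at 103, 96.4 and 94.0 CPM without drug, 126, 125 and 135 CPM with DEX, 74.5, 90.8 and 87.4 CPM with SH4-54 and 54.8, 58.9 and 81.0 CPM with both. DEX raised it alone and lowered it in the presence of SH4-54 (0.39 and -0.37), and the interaction of -0.76 ± 0.15 (SE, adjusted p = 0.0153) was lost without SH4-54 replicate 2 (adjusted p = 0.0518). STAT2 (-0.41 ± 0.094) and IFI44 (-0.32 ± 0.085) lost their calls in 8 and 11 of the 12 fits. IFIT1, IFIT3 and HERC5 are shown because their upstream sequence holds the interferon-stimulated response element, searched as GAAA, any 2 bases and GAAA on either strand and found in 996 (3.65%) of the 27305 RefSeq promoters. The stretches lie at chr10:89392477-89392559 (plus strand), chr10:89327811-89327914 (plus strand) and chr4:88456964-88457084 (plus strand) of GRCh38.p14. Capitals mark the matches, which here read as the reverse complement, TTTC, any 2 bases and TTTC.
IFIT1: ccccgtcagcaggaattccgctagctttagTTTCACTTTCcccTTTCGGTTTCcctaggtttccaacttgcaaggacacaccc
IFIT3: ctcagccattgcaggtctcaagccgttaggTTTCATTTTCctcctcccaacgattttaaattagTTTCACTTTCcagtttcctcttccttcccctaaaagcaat
HERC5: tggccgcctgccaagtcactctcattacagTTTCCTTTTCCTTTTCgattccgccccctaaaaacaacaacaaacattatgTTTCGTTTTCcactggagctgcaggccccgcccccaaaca
IFIT1 and IFIT3 hold 2 matches each and HERC5 holds 3, of which a pair overlap in 1 run of capitals. The genes were picked for holding the motif, and nothing about binding follows from a match.

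**Figure D5:**
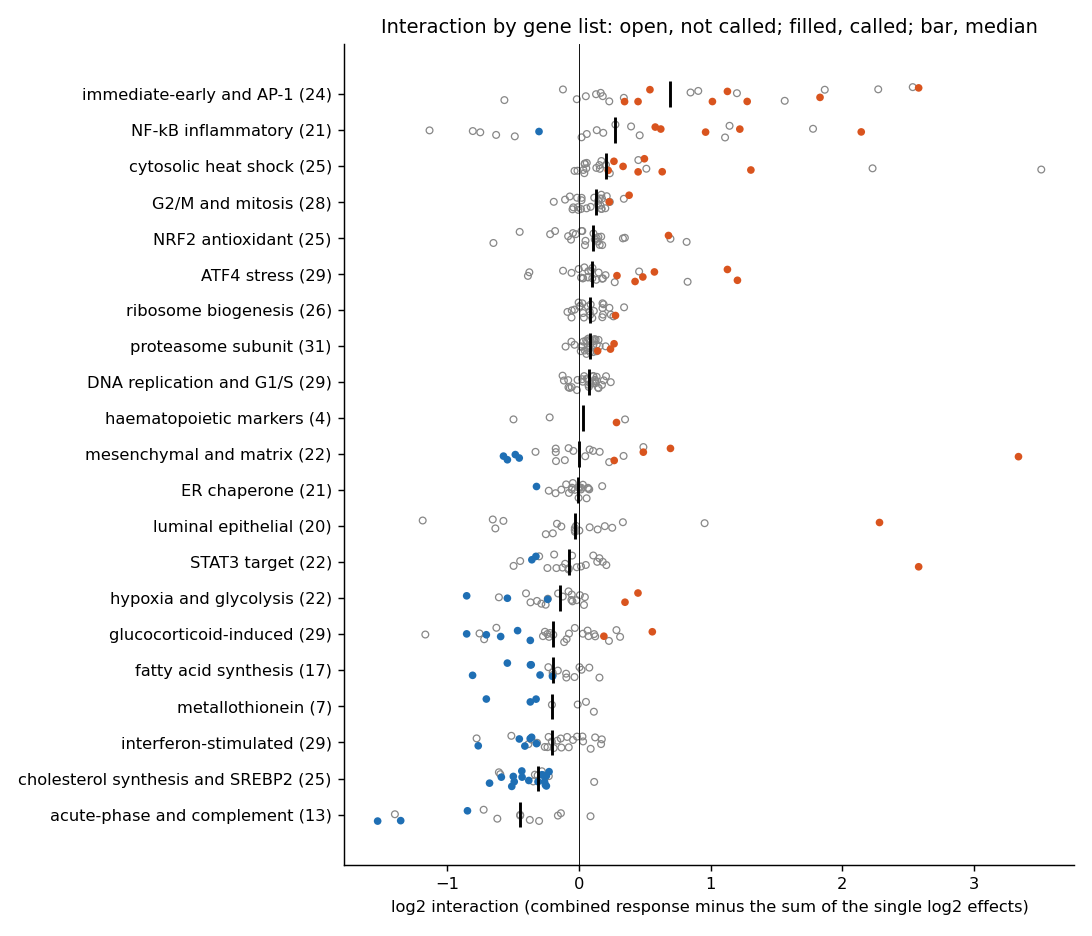
Log2 interaction (horizontal axis) of each tested member of 21 gene lists, ordered by the list's median (black bar), with the number tested in parentheses. Open circles were not called, orange circles were called above the sum and blue circles below it. Immediate-early genes have the highest median, 0.69, and acute-phase genes the lowest, -0.45.

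Outside the lists, genes that DEX raised and that lost part of the rise were varied. PEG10, a gene derived from a retrotransposon, was at 266, 261 and 260.1 CPM without drug, 865, 783 and 808 CPM with DEX, 272, 221 and 213 CPM with SH4-54 and 414, 355 and 525 CPM with both, with both compounds between DEX and the wells without DEX (interaction -0.77 ± 0.15, adjusted p = 0.0158). The gap junction gene GJA1 (-0.55 ± 0.10), the paraoxonase gene PON2 (-0.55 ± 0.084) and PROS1, anticoagulant protein S (-0.52 ± 0.097), had the same layout and kept 46.0%, 55.9% and 56.7% of the DEX effect. The transporter gene SLC16A5 (-0.58 ± 0.10) and GEMIN8 (-0.54 ± 0.11) no longer passed for DEX in the presence of SH4-54. C4BPB, a subunit of the complement regulator C4b-binding protein, was at 89.1, 93.2 and 96.5 CPM without drug, 118, 123 and 121 CPM with DEX, 83.3, 82.5 and 83.5 CPM with SH4-54 and 153, 145 and 131 CPM with both. Its DEX rise was larger with SH4-54 (interaction 0.41 ± 0.068, adjusted p = 0.00789). P3H2, a collagen prolyl hydroxylase, was at 132, 137 and 137 CPM without drug, 127, 124 and 123 CPM with DEX, 136, 138 and 134 CPM with SH4-54 and 106, 108 and 109 CPM with both, with a larger DEX fall in the presence of SH4-54 (interaction -0.22 ± 0.042, adjusted p = 0.0143).

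Some genes were called for the combination against no drug and for neither compound alone. RCAN1, an inhibitor of calcineurin, was at 64.1, 64.8 and 67.2 CPM without drug, 60.8, 63.2 and 61.3 CPM with DEX, 64.6, 65.5 and 63.9 CPM with SH4-54 and 84.4, 85.3 and 80.5 CPM with both. The 9 wells of the other groups lay between 60.8 and 67.2 CPM, all combination wells lay above them, and the interaction was 0.45 ± 0.050 (SE, adjusted p = 0.000501). The non-coding host gene SNHG12 (0.73 ± 0.15) and IQCB1 (0.57 ± 0.11) belonged to these, above the sum. CD164, a sialomucin, was at 155, 156 and 160.5 CPM without drug, 165, 160.2 and 162 CPM with DEX, 157, 155 and 159 CPM with SH4-54 and 135, 129.7 and 143 CPM with both, lowest in the 3 combination wells (interaction -0.25 ± 0.050, adjusted p = 0.0152). TCEAL3 (-0.71 ± 0.13) was also below the sum.

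The side on which a called gene lay depended on the scale of addition for few genes, while the size of the departure could change. ANGPTL4 had a mean of 67.1 CPM with both, against 121 by the product and 75.4 by the sum. RGS2 had 52.4 CPM, against 72.3 and 55.5. Of 73 named genes compared, 0 changed side and 14 changed in size by at least the SD of their 3 wells' departures. Genes departing on the CPM scale alone were not looked for. When the expected level was the sum of the CPM changes in place of the product of the folds, all 3 combination wells stayed on the same side in 546 of the 553 genes. The 7 exceptions included IL11, ANXA10, ASB2, CYP1A1, CYP1B1 and LINC00261, and in 1 of the 7 the mean lay on the opposite side. The adjusted p of the last called gene, AFAP1, was 0.0499, and that of the first gene not called, CPA4, 0.0501.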

How the data were processed

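The deposited table holds the authors' whole-number counts of reads for each gene symbol and library. The tools named are featureCounts 1.5.1, HISAT2 2.1.0 and SAMtools, and the builds hg19 and GRCh37, per the submitters' processing notes. Libraries were made from total RNA after removal of ribosomal RNA, per the labels' protocols. The labels do not give the annotation, the strand setting or the treatment of multi-mapping reads, so near-identical and overlapping genes are uncertain. Of 26364 rows, 4474 were 0 in every library.

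Groups and replicate numbers came from the sample titles. Genes were filtered with edgeR 4.0.16 (filterByExpr by group, minimum count 10; 14184 left), scaled by TMM, and fitted in 1 quasi-likelihood model of 4 groups in R 4.3.3, with 8 residual degrees of freedom. Every adjusted p is edgeR's, by Benjamini-Hochberg over the 14184 genes, called below 0.05. The standard error is the absolute log2 value over the square root of F, with a median of 0.0900 for the interaction. CPM values were scaled with the TMM factors, and a prior count of 2 was added before taking log2. The fit was also run on simulated counts. These had the same spread in every group, so the larger spread of the combination wells was not checked. Libraries of 1 group always differed by more than sampling noise (smallest chi-square over its degrees of freedom 4.26).

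The members, the 21 gene lists, the classes and the rule for named genes were chosen with earlier results of these data known. Named genes were called with all libraries and with each left out, had a mean of at least 5 CPM in 1 group and all combination wells on 1 side. From these the 10 largest in each direction and the 4 largest in each class were taken, then up to 4 called members of each list in order of p, and in any case TSC22D3, FKBP5, NR3C1, STAT3, STAT5A and STAT5B. Other genes were named after their values were seen, and some genes taken by the rule are not reported here. ANGPTL4, ATF3, FOS, LOX, MT1X and MT2A belong to more than 1 list. Luminal epithelial genes held 1 called of 20 (TFF1, above, with 3 more below without combination replicate 3) and haematopoietic markers 1 of 4 (CD68, above, 0.28 ± 0.069). CD68 lost its call with any no-drug, DEX or SH4-54 library left out and without combination replicate 2 (largest adjusted p 0.101). Over all tested genes 3.90% were called. Promoters came from RefSeq (GRCh38.p14) and matched 416 of the 553 called genes by symbol.

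Alternatives were DESeq2 size factors, the DESeq2 1.42.0 Wald test, limma 3.58.1 voom with group weights, no count filter, a stricter filter (a mean of 20 counts and 1 CPM in 3 libraries), a block for the replicate number, the 10 most abundant genes removed, a test against a fold of 1.2, another DEX effect for sorting, sums of CPM in place of products of folds, and each library left out.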

Additional observations from a re-analysis of the deposited data

Results flagged for a closer look

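The DEX effect with SH4-54 differed from the DEX effect without it in 553 genes, by the interaction term of the 4-group model (edgeR quasi-likelihood test, adjusted p below 0.05). At an unadjusted p below 0.05 there were 2992 of the 14184 tested genes, in either direction. The unadjusted counts of the gene lists are to be read beside that number, which gives no background for their direction.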

How the results depend on the processing

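No gene called with all libraries changed sign in the 12 fits with a library left out or in the 7 refits of all libraries against no change. Of the 553, 162 were called in each of these 19 fits and 357 in each of the 7. With sums of CPM in place of products of folds, the mean of 1 gene lay on the opposite side. Of 74 named genes that were called, 49 kept their call in all 19 and 64 in the 7. The count was 848 with no count filter (389 below the sum) and 38 against a fold of 1.2 (36 above, 2 below). With the DESeq2 Wald test 370 genes were below the sum. The share above was 62.6% in the model used, 50.9% with DESeq2's test and 40.7% without combination replicate 3. DEX rises made smaller numbered 275 with DESeq2 and 295 with no filter. DEX rises made larger numbered 17 with DESeq2 and 40 with the averaged DEX effect. DEX falls made larger numbered 16 with DESeq2, 16 with no filter, 2 with the replicate block and 28 with the averaged effect. Genes above the sum with no DEX call numbered 89 with no filter and 78 with the averaged effect, and those below 79 with DESeq2 and 78 with no filter. With DESeq2, 11 heat shock genes were above the sum. The cause of these shifts was not tested.

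With 1 library left out the count ranged from 204 to 2046, above the sum from 135 to 833 and below it from 68 to 1213. DEX rises made smaller ranged from 58 to 822, rises made larger from 2 to 42, falls made smaller from 116 to 575 and falls made larger from 1 to 89. Genes with no DEX call ranged from 15 to 216 above and from 7 to 302 below. List members below the sum ranged from 7 to 23 for cholesterol, 2 to 12 for fatty acid synthesis, 3 to 9 for glucocorticoid-induced and 2 to 10 for interferon-stimulated genes. Those above ranged from 3 to 6 for NF-kB, 3 to 11 for heat shock, 3 to 7 for ATF4 and 5 to 14 for immediate-early genes. DEX against no drug ranged from 5526 to 6685 calls, SH4-54 from 26 to 163, both against no drug from 5141 to 6233, both against DEX from 2213 to 4633 and both against SH4-54 from 4846 to 5729. The highest values of the interaction came without combination replicate 3.

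Wells of different groups share only a replicate number. Same-numbered wells' deviations from their group means had correlations from -0.0975 to 0.0926 over 18 pairs of libraries, against -0.107 to 0.142 for different numbers. With the replicate block 394 genes were called, 249 above and 145 below, and 9 named genes lost their call. The smallest departure called was 0.14 on the log2 scale.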

Other observations

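Some genes near the detection limit were highest with both compounds. GADD45G, a stress sensor gene, was at 0.282, 0.298 and 0.0703 CPM without drug, 0.0387, 0.0343 and 0.113 CPM with DEX, 0.756, 0.526 and 0.347 CPM with SH4-54 and 2.29, 2.75 and 1.88 CPM with both. Its log2 interaction was 3.83 ± 0.75 (SE, adjusted p = 0.0147), and the call was lost in 3 of the 12 fits with a library left out. MAFA (2.64 ± 0.64) was also called above the sum, at no more than 1.67 CPM in any well, and lost its call in 8 fits. The Notch ligand gene DLL4 was at 1.35, 1.46 and 1.27 CPM without drug, 0.619, 0.480 and 0.829 CPM with DEX, 1.07, 0.901 and 1.47 CPM with SH4-54 and 2.098, 1.63 and 1.65 CPM with both, and its interaction of 1.73 ± 0.32 (SE, adjusted p = 0.0114) kept its call in all 12. These genes were chosen after their values were seen.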
